A study of Arabidopsis thaliana with 4 samples.

Results

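The plastid genome of Arabidopsis carries genes that serve its own gene expression and lipid synthesis rather than photosynthesis itself. Described here are 6 of them, rpoA, rpoB, rpoC1, rpoC2, matK and accD, and not, for example, its ribosomal protein genes. They were picked by name and function, with earlier results of these data known, and each had exactly 1 probe set annotated to it alone, so all 6 are described here out of 69 plastid genes with such a probe set and 13350 such genes in all. RNA from whole Columbia seedlings, 14 days old and grown on MS medium without stress, was measured on 4 Affymetrix arrays. The arrays labelled 35S:OsGSTU4 (n = 2) hold RNA of seedlings with OsGSTU4, a glutathione S-transferase gene of the tau class from rice, under the constitutive CaMV 35S promoter, and those labelled WT (n = 2) are from the untransformed ecotype. The sample labels say only GST overexpression, a sentence of the design text names a GRX line, and the study describes the seedlings as a single homozygous transgenic line, so other insertions were not sampled. The annotation gives no probe set to the rice gene, and the level of the transgene could not be checked on these arrays. In the paper's real-time PCR, the line it used for the arrays had the lowest transgene level of the lines compared. Of the marker genes listed for the tissue, LHCB4.2 and RCA of green shoots and EXP7 of root hairs had a probe set annotated to them alone. The other 9 had none and are counted as not measured.

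Plastid genes are read by 2 kinds of RNA polymerase. The bacterial-type enzyme is encoded in the plastid itself, with rpoA giving the alpha, rpoB the beta, rpoC1 the beta′ and rpoC2 the beta″ subunit, and it needs sigma factors and associated proteins made in the nucleus. It reads mainly photosynthesis genes, while phage-type polymerases encoded in the nucleus read the operon of rpoB, rpoC1 and rpoC2 and the accD gene. The matK gene lies inside the intron of the lysine tRNA gene trnK and encodes a maturase, a protein that helps a class of plastid introns to be spliced. The accD gene encodes the beta-carboxyltransferase subunit of the plastid acetyl-CoA carboxylase, which makes the starting compound of fatty acid synthesis. In the labelling kit used, copying starts at poly(A) tails, which most plastid transcripts do not carry in stable form. How the signal follows the total amount of each transcript was not measured.

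All 6 genes had a higher mean in the arrays labelled 35S:OsGSTU4 than in those labelled WT. So did all of the other 63 plastid genes, and 12272 of the 22746 probe sets tested. The size of the difference ran from 0.15 for rpoA to 2.09 for accD on the log2 scale, with a median of 1.15. With arrays centred on the other plastid genes, rpoA and rpoC2 turned to the other direction, and rpoA also did so without 35S:OsGSTU4 replicate 2. None of the 6 genes is in the study's list of changed genes. The plastid genes in that list, psbC and rbcL among them, are given as lower in the transgenic line. On these arrays every measured plastid gene, psbC and rbcL included, had a higher mean under the label 35S:OsGSTU4, the opposite direction. By real-time PCR, the paper also reports higher levels of selected GST and antioxidant enzyme genes in the transgenic line without stress. Whether the array labels or the contrast of that list are exchanged is not settled here. If the labels are, every difference given here has the opposite sign, and each group goes by its label. The accD difference was the 9th of the 69 plastid genes in order of size, matK, rpoC1 and rpoB stood at places 23, 25 and 29, and rpoC2 and rpoA at places 48 and 60. Past the thresholds of the methods, a fold change of at least 2 with P of at most 0.05, here the unadjusted P of limma, were 3 of the 6 genes (accD, matK and rpoC1), against 2.38% of all probe sets in the same direction and 17 of the other 63 plastid genes. Without 35S:OsGSTU4 replicate 2 or without WT replicate 1, only accD passed, 1 of the 6 in each case. The lowest array labelled 35S:OsGSTU4 was above the highest array labelled WT at 4 of the 6 genes, against 21.1% of all probe sets and 43 of the other 63 plastid genes. At an adjusted p under 0.05 none of the 6 genes was called by limma, and 0% of all probe sets were, although 1317 probe sets had an unadjusted P under 0.05. The other 63 plastid genes had a median difference of 0.88, nuclear genes 0.03 and all probe sets 0.04. With 2 arrays a group an exact permutation test cannot give a p below 0.333, and none was used.

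**Figure D1:**
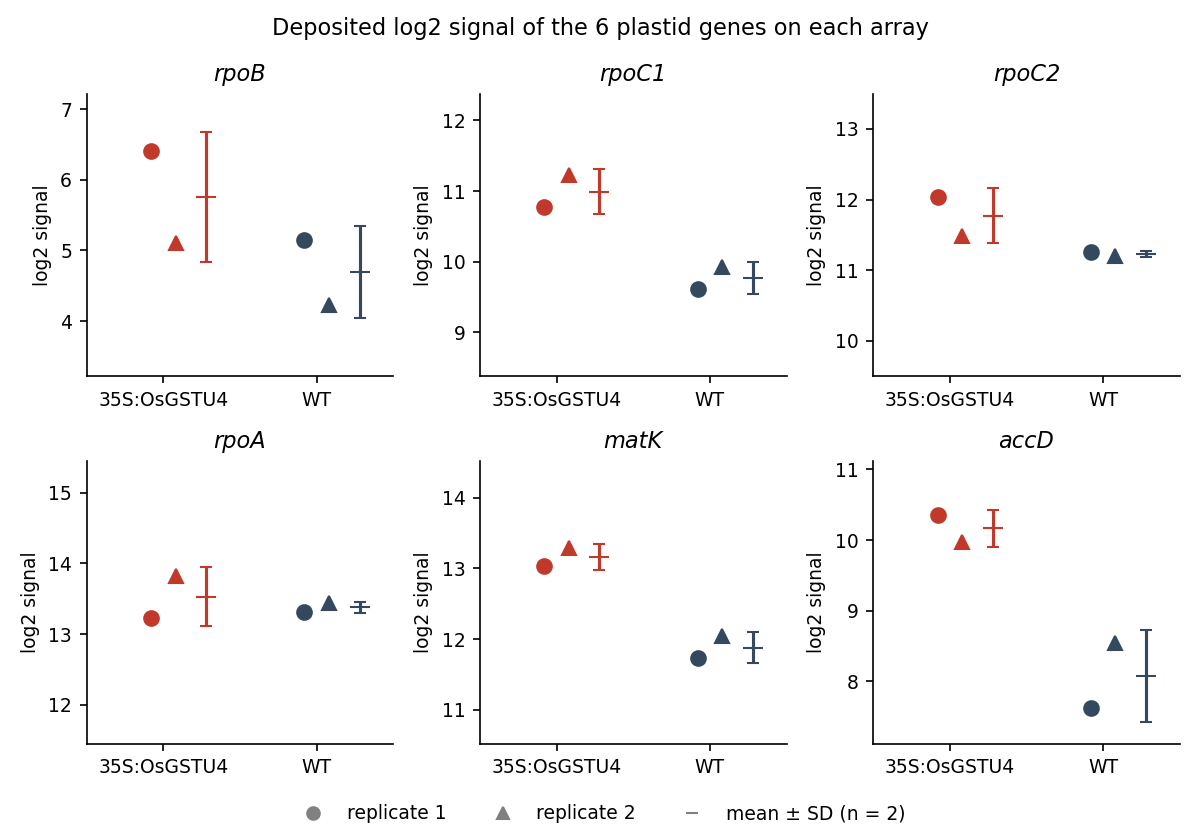
Log2 signal (y axis) of each of the 6 genes on the 2 arrays labelled 35S:OsGSTU4 (left in each panel) and the 2 labelled WT (right), with the mean and SD beside the points. Each panel spans 4 log2 units. Both arrays of a group stand clear of the other group for rpoC1, rpoC2, matK and accD, and the groups overlap for rpoB and rpoA.

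Among the subunits of the plastid-encoded polymerase, rpoC1 showed the clearest difference. Its log2 signal was 10.77 and 11.22 in the arrays labelled 35S:OsGSTU4, against 9.61 and 9.93 in those labelled WT. Both transgenic arrays stood above both WT arrays, and the gap between the nearest arrays was 0.83. The means were 10.99 ± 0.32 for 35S:OsGSTU4 and 9.77 ± 0.23 for WT (SD, n = 2 each), a difference of 1.22 (standard error 0.30) or 2.33-fold. The 95% interval of the difference was 0.32 to 2.12, with an unadjusted P of 0.0213 and an adjusted p = 0.738 in limma. The call held without 35S:OsGSTU4 replicate 1, at a difference of 1.45 with a P of 0.0460. It was lost without 35S:OsGSTU4 replicate 2 (1.00, P of 0.101), without WT replicate 1 (1.06, P of 0.0882) and without WT replicate 2 (1.39, P of 0.0510). Of the 18 other plastid genes within 1 log2 unit of its mean signal, 7 had a larger difference, and their median was 1.03.

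The gene for the beta″ subunit, rpoC2, which is read from the same operon, had 12.04 and 11.49 in the arrays labelled 35S:OsGSTU4, against 11.26 and 11.20 in those labelled WT. The groups did not overlap, but the nearest arrays were only 0.23 apart, because replicate 2 of 35S:OsGSTU4 stood close to both WT arrays. The difference was 0.54 (standard error 0.30, 95% interval -0.36 to 1.43), with an adjusted p = 0.895 in limma. It ranged from 0.26 without 35S:OsGSTU4 replicate 1 to 0.81 without its replicate 2. Of the 19 other plastid genes within 1 log2 unit of its mean signal, 16 had a larger difference, and their median was 0.88. The intervals of rpoC1 and rpoC2 overlap, and whether they differ from each other was not tested.

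The first gene of that operon, rpoB, was the dimmest of the 6, at percentile 28.7 of mean signal among all probe sets. Its log2 signal was 6.41 and 5.11 in the arrays labelled 35S:OsGSTU4, against 5.15 and 4.23 in those labelled WT. The groups overlapped by 0.04, and the spread within each group was wide, at 0.92 for 35S:OsGSTU4 and 0.65 for WT (SD, n = 2 each). The replicates labelled 1 were the higher ones in both genotypes. The difference of 1.07 (standard error 0.65, 95% interval -0.84 to 2.99, adjusted p = 0.895 in limma) was therefore poorly determined, and it moved from 0.42 to 1.72 when single arrays were left out. With the replicate number as a block it passed the thresholds, at a P of 0.0426 and an adjusted p = 0.816. All 3 other plastid genes within 1 log2 unit of its mean signal had a larger difference, from 1.68 to 2.69. Over the 3 genes of the operon the median difference was 1.07.

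The alpha subunit gene rpoA differed least. It had 13.23 and 13.82 in the arrays labelled 35S:OsGSTU4, against 13.32 and 13.44 in those labelled WT. Both WT values lay between the transgenic ones. The means of 13.53 ± 0.42 for 35S:OsGSTU4 and 13.38 ± 0.08 for WT (SD, n = 2 each) gave a difference of 0.15 (standard error 0.32, 95% interval -0.79 to 1.09, adjusted p = 0.948 in limma). Without 35S:OsGSTU4 replicate 2 the difference was -0.15. The probe set was among the brightest on the array, at percentile 99.3 of mean signal, and the interval does not show that rpoA had the same level in both genotypes.

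**Figure D2:**
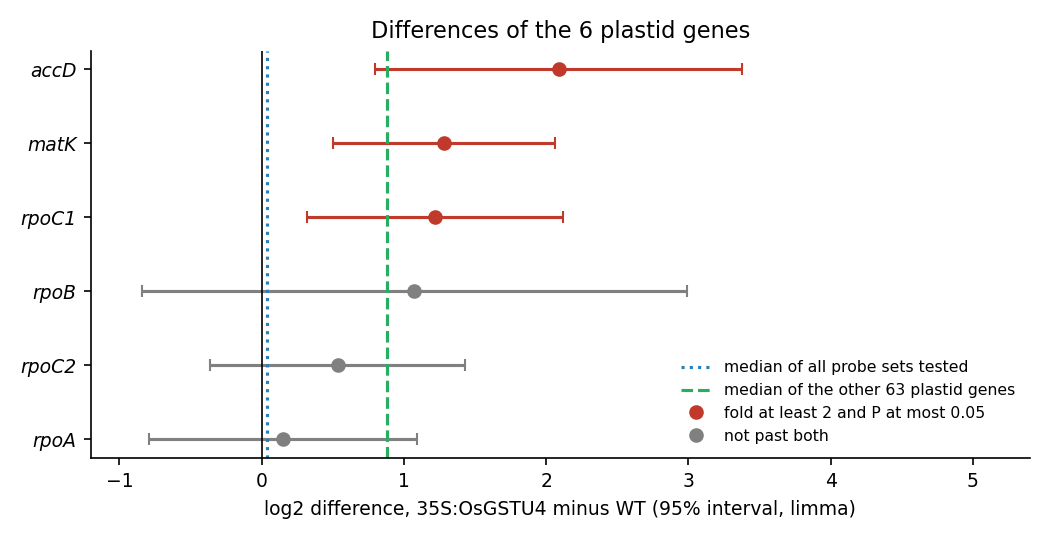
Log2 difference (x axis), 35S:OsGSTU4 minus WT, of the 6 genes with 95% intervals from limma (n = 2 arrays each). Red points passed a fold of 2 with P of at most 0.05 (accD, matK and rpoC1). The dotted line is the median of all probe sets (0.04) and the dashed line that of the other 63 plastid genes (0.88).

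The maturase gene matK had 13.04 and 13.29 in the arrays labelled 35S:OsGSTU4, against 11.73 and 12.04 in those labelled WT. The groups stood 1.00 apart at their nearest arrays, and replicates of each genotype lay close together, at 13.16 ± 0.18 for 35S:OsGSTU4 and 11.88 ± 0.22 for WT (SD, n = 2 each). The difference was 1.28 (standard error 0.26, 95% interval 0.50 to 2.06) or 2.43-fold, with an unadjusted P of 0.0122 and an adjusted p = 0.631 in limma. Its signal was bright, at percentile 97.8. Among the 15 other plastid genes within 1 log2 unit of its mean signal, differences ran from 0.03 to 2.07 with a median of 0.62, and 2 were larger than that of matK. The P was 0.0735 without 35S:OsGSTU4 replicate 2 and 0.0538 without WT replicate 1, with differences of 1.15 and 1.13.

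The largest difference of the 6 was that of accD. Its log2 signal was 10.35 and 9.98 in the arrays labelled 35S:OsGSTU4, against 7.62 and 8.54 in those labelled WT. The nearest arrays of both genotypes were 1.45 apart, the widest gap among the 6 genes, while the WT arrays differed from each other more than the transgenic ones did. The means were 10.17 ± 0.26 for 35S:OsGSTU4 and 8.08 ± 0.65 for WT (SD, n = 2 each), and the difference was 2.09 (standard error 0.43, 95% interval 0.80 to 3.38) or 4.25-fold. Limma gave an unadjusted P of 0.0125 and an adjusted p = 0.635. Without 35S:OsGSTU4 replicate 1 the difference was 1.90 with a P of 0.0654, and the methods' t-test gave a P of 0.0517 on all arrays, both outside the threshold. Of the 10 other plastid genes within 1 log2 unit of its mean signal, 1 had a larger difference, over a range of 0.41 to 2.41 with a median of 1.60.

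All 69 measured plastid genes had a higher mean in the arrays labelled 35S:OsGSTU4. The 6 genes were therefore also set against the other 63 plastid genes of the same array, by centring each array on their median. On that scale accD still had the largest difference, at 1.18 (standard error 0.43, 95% interval -0.06 to 2.42) with its groups apart, and a P of 0.0574 in limma. The polymerase gene rpoA was on the other side, at -0.76 (standard error 0.31, 95% interval -1.64 to 0.11), where both arrays labelled 35S:OsGSTU4 lay below both labelled WT and the P was 0.0722. Before centring, the other plastid genes of like signal had a median difference of 0.25 around the bright rpoA and 1.60 around the dimmer accD. Centring on a single median does not allow for this dependence on signal. The values of matK, rpoC1 and rpoB were 0.37, 0.31 and 0.16, and that of rpoC2 was -0.37, each with an interval that holds 0. The groups of matK and rpoC1 also stood apart on this scale, by 0.34 and 0.18 at their nearest arrays. How many of all probe sets or of the other plastid genes stood apart on this scale is not given here. Whether such gaps are unusual can therefore not be read from them. None of the 6 genes passed the thresholds on this scale, so no difference from the other plastid genes was established for any of them. The adjusted p of limma ran from 0.182 for accD to 0.879 for rpoB. It was taken over all probe sets, which this centring shifts together. It is therefore no measure of a difference from the other plastid genes.

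The neighbours on the plastid genome were read next, since plastid genes are mostly transcribed in groups. In the rpoA operon, which otherwise encodes ribosomal proteins, 6 of the 10 partner genes were measured, with differences from 0.01 to 0.36. The large-subunit genes rpl14, rpl16, rpl22 and rpl36 had 0.25, 0.36, 0.01 and 0.03, and the small-subunit genes rps3 and rps19 had 0.09 and 0.14. The arrays of both genotypes stood apart, narrowly, at rpl14 and rpl16, and overlapped at the other 4. None passed the thresholds, and their median was 0.11. All were bright, with mean signals of 12.48 or more. The 15 other plastid genes within 1 log2 unit of the mean signal of rpoA, which include genes of this operon, had a median of 0.25 over a range of 0.01 to 0.94, and 9 of them differed by more than rpoA.

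On the other side of rpoC2 lies a cluster that starts with rps2, a small-subunit ribosomal protein gene, and goes on with ATP synthase genes. All 5 of its genes had higher means in the arrays labelled 35S:OsGSTU4, with groups that did not overlap at any of them and a median difference of 1.27. All 69 measured plastid genes were higher, their groups did not overlap at 47, and 20 passed the thresholds. Over all probe sets, 21.1% did not overlap and 2.38% passed in this direction. The difference of rps2 was 0.69, near that of rpoC2, and atpI had 0.41. The genes atpH and atpF passed the thresholds at 1.27 and 1.92, while atpA had 1.91 with a P of 0.0540. Beyond rpoB lies petN, whose protein is a minor component of the cytochrome b6f complex, with a difference of 2.69.

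Around accD all 5 listed neighbours were measured, all were higher in the arrays labelled 35S:OsGSTU4 with no overlap between the groups, and 3 passed the thresholds. Among all 69 measured plastid genes, each was higher, 47 had no overlap and 20 passed, against 21.1% and 2.38% of all probe sets. Upstream, rbcL for the large subunit of Rubisco had 1.03. Downstream, psaI of photosystem I had 0.75, ycf4, which acts in photosystem I assembly, 1.90, the envelope protein gene cemA 1.62 and petA for cytochrome f 0.88. The psaI and petA differences did not pass. Next to matK, rps16 passed at 1.38. The psbA gene on its other side, which encodes the D1 protein of photosystem II, had 9.29 and 12.04 in the arrays labelled 35S:OsGSTU4, against 10.26 and 10.94 in those labelled WT, so its groups overlapped widely and its difference of 0.07 had a standard error of 1.10.

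**Figure D3:**
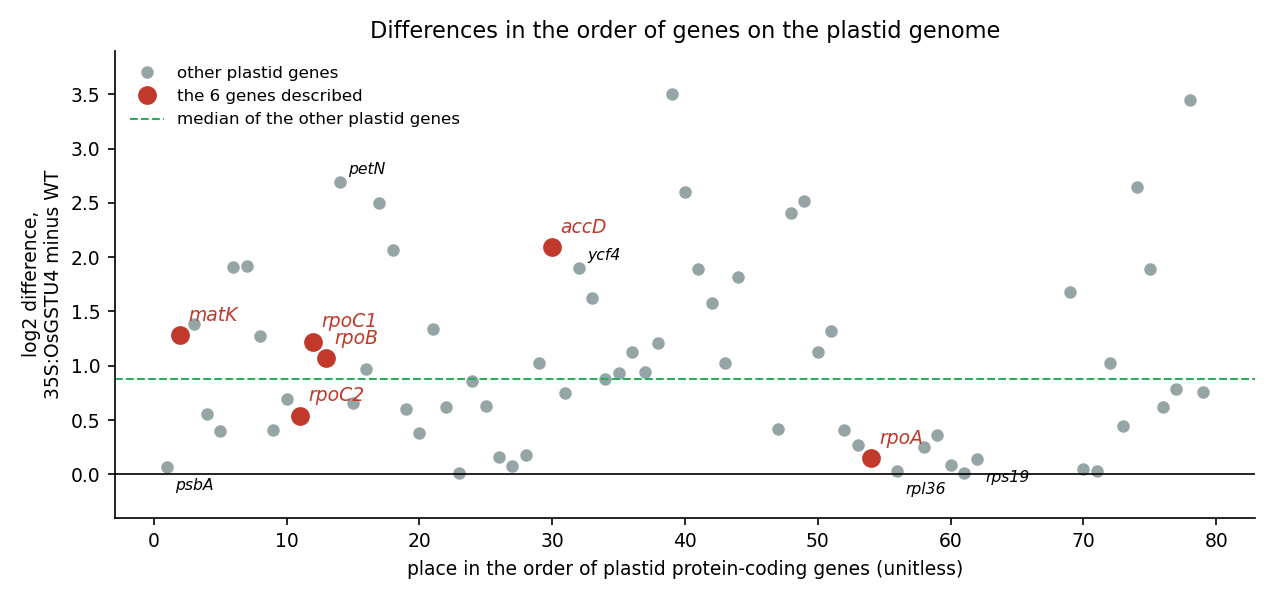
Log2 difference (y axis), 35S:OsGSTU4 minus WT, of the 69 measured plastid genes in their order along the plastid genome (x axis, place among its protein-coding genes). The 6 genes are red and the dashed line is the median of the others (0.88). The rpoA gene lies within a run of small differences that ends with rps19 (0.14), while accD (2.09) lies near ycf4 (1.90).

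A chosen list of 15 photosynthesis genes that the plastid-encoded polymerase reads, which is not all such genes, had a probe set for each. The 15 had higher means in the arrays labelled 35S:OsGSTU4, as did all 69 measured plastid genes. Their median difference was 0.88, and 4 passed the thresholds, beside 1.07 and 1 of 3 for the operon of rpoB, rpoC1 and rpoC2. Of all 69 measured plastid genes 20 passed, against 2.38% of all probe sets in this direction. The listed genes that passed were psbC at 2.50, psbB at 2.41, psaA at 1.34 and rbcL at 1.03, which encode antenna and core proteins of the photosystems and the Rubisco subunit. Of 3 plastid protein genes with an intron of the class bound by the matK maturase, only atpF had a probe set of its own.

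Few nuclear partners of these genes had a probe set annotated to them alone. Of 9 nuclear polymerase and sigma factor genes 1 was measured, RPOTmp, a phage-type polymerase of mitochondria and plastids. It had 6.34 and 6.66 in the arrays labelled 35S:OsGSTU4, against 6.43 and 3.46 in those labelled WT, so its difference of 1.56 rested on WT replicate 2. Of 8 plastid splicing factors 2 were measured, PPR4 at 0.58 (standard error 0.27) and CAF1 at 0.44 (standard error 0.46). The editing factor genes YS1 and OTP81, whose proteins act on plastid transcripts including that of rpoB, had 2.29 (standard error 0.97) and 0.52 (standard error 0.42), and YS1 at 2.86 on WT replicate 2 again carried most of its difference. None of these 5 genes passed the thresholds. None of the 13 genes of polymerase-associated proteins and none of the other 4 subunit genes of the plastid acetyl-CoA carboxylase had a probe set annotated to it alone. Downstream of that enzyme, plastid fatty acid synthesis had 6 of 12 listed genes measured. Of these, 5 had a higher mean in the arrays labelled 35S:OsGSTU4, 1 had a lower one, their median difference was 0.10, and none passed the thresholds. They ran from -0.20 for the thioesterase gene FATA2 to 0.27 for the dehydratase gene HAD1.

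By the distance between profiles over the 4 arrays, each centred on its own mean, the genes most alike in signal and pattern to rpoC1 were the plastid genes rps18 and psbH (0.24 and 0.32 log2 units, of 1800 genes compared). For matK they were the plastid genes psbJ and petA (0.39 and 0.45, of 383), and for accD the plastid genes rps16 and rpl20, at a wider distance (0.73 and 0.81, of 3271). The rpoA profile was closest to the nuclear photosystem II gene PSBY (0.10) and to rps19 of its own operon (0.12, of 176 genes). The genes closest to rpoC2 (AT4G34450 and AT4G13170, 0.10 and 0.16, of 842) and to rpoB (AT4G08020 and AT5G57570, 0.21 each, of 2447) were nuclear. A profile here has 4 points from 4 arrays, which all genes share.

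Several other measures moved beside these differences. The array medians over all probe sets were 7.41 and 7.42 for 35S:OsGSTU4, against 7.29 and 7.37 for WT. The gap between the 3′ and 5′ probe sets of the actin control, which widens when labelled RNA is shorter, was 4.07 and 3.76 in the arrays labelled 35S:OsGSTU4, against 3.48 and 3.53 in those labelled WT, and for GAPDH it was 1.05 and 1.36 in the arrays labelled 35S:OsGSTU4, against 1.01 and 0.96 in those labelled WT. The green shoot genes LHCB4.2 and RCA had differences of 0.87 (standard error 0.44) and 0.16 (standard error 0.27), and EXP7 of root hairs had -1.50 (standard error 0.90), with 6.79 and 4.50 in the arrays labelled 35S:OsGSTU4, against 7.11 and 7.17 in those labelled WT. The 11 mitochondrial genes measured had 6 higher and 5 lower means and a median of 0.56. The part of RNA quality, tissue makeup or array scaling in the plastid differences was not tested. In whole seedlings, more green tissue and more plastid RNA per cell cannot be told apart.

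**Figure D4:**
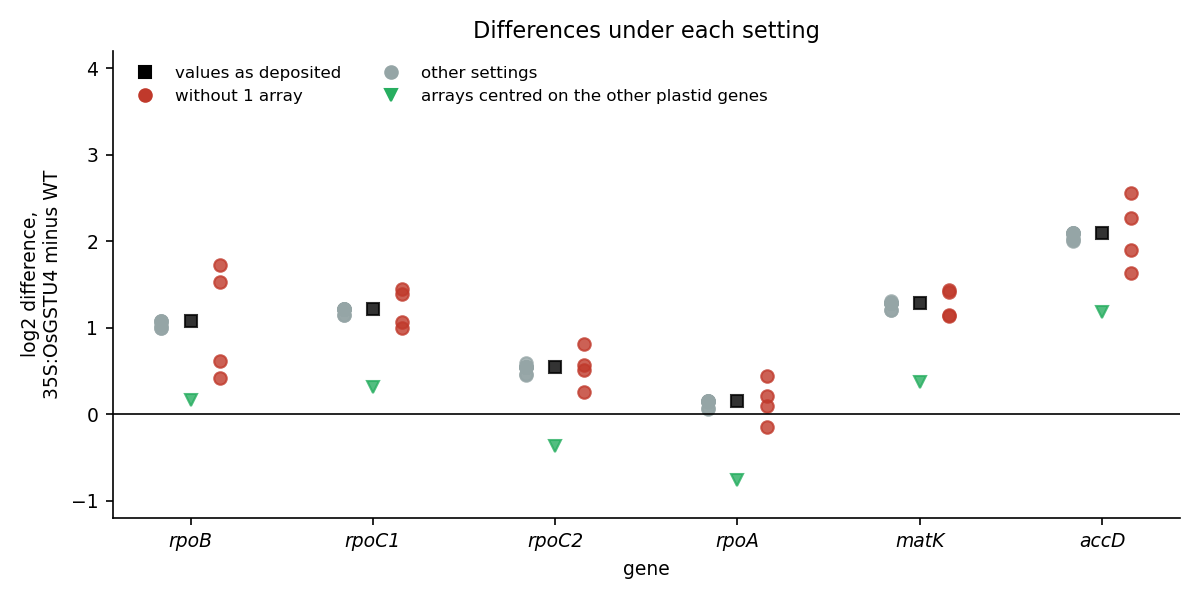
Log2 difference (y axis), 35S:OsGSTU4 minus WT, of each gene as deposited (squares), with each array left out in turn (red), under the other settings (grey) and with arrays centred on the other plastid genes (green). The accD values stay between 1.18 and 2.55, and rpoA lies on both sides of 0, from -0.76 to 0.44.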

How the data were processed

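The deposited values are log2 signals of the authors, with 1 value for each probe set on each Affymetrix array. The submitters' processing notes name RMA without a version, yet the arrays do not share a distribution (95 and 58 probe sets stand at exactly 0 on the 35S:OsGSTU4 arrays, and 167 and 17 on the WT arrays), so the values are not on a quantile normalized scale. They were used as deposited. After 64 control probe sets were set aside, 22746 were fitted with limma 3.58.1 in R 4.3.3, without a replicate block, with Benjamini-Hochberg adjustment over all of them. The thresholds of the methods do not say whether P was adjusted, so the unadjusted P was used with them. Probe sets were tied to genes through the platform annotation and the RefSeq gene table (13436 by Entrez ID, 72 by symbol or locus tag, 5 not tied), and the brightest single-gene probe set stood for a gene. The labels count 2 biological replicates a genotype and a longer light period, where the paper's methods differ. P-values measure only the spread between these arrays, and their number limits the precision.

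The genes and lists were chosen from general knowledge with earlier results of these data known. Named are the 6 genes, the measured operon and gene neighbours, members of each list past the thresholds or with its highest or lowest difference, and the 2 most alike genes for each of the 6. Other genes named were chosen after their values were seen. The fit was run on simulated independent normal values, only to check that it recovers added differences on average. This does not bear on the calls made in these data. No sequence of the genes was used here, and the promoter search planned was not run. Figures were drawn with matplotlib 3.10.9.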

Additional observations from a re-analysis of the deposited data

How the results depend on the processing

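The 6 genes were refitted under 13 other settings, 12 of them planned and 1, the intensity trend together with the filter, added after the data were seen. Apart from leaving out arrays and centring on the other plastid genes, 44 of 46 values of single genes kept their direction and their side of the thresholds. The exceptions were accD with the methods' t-test (P of 0.0517) and rpoB with the replicate block (P of 0.0426). The filter on dim probe sets removed rpoB. The median difference of the genes was 1.06 with arrays centred on their medians, 1.07 centred on nuclear genes, 1.22 above the median mean, with or without the intensity trend, and 0.24 centred on the other plastid genes, where 0 of the 6 passed the thresholds and rpoC2 and rpoA turned to -0.37 and -0.76. Without single arrays the median ran from 0.93 to 1.09, and rpoA ran from -0.15 (without 35S:OsGSTU4 replicate 2) to 0.44.

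Over all probe sets, 542 were higher past the thresholds, against 223 with arrays centred on the other plastid genes, 49 above the median mean, with or without the intensity trend, 297 with the trend alone, 239 with the methods' t-test, 649 with the replicate block, and 497 to 1161 without single arrays (859 without WT replicate 1 and 1161 without WT replicate 2). The labels give same-numbered arrays nothing else in common. Their deviations from the group means correlated at 0.0478 over all probe sets, 0.23 over those above the median mean and 0.248 over the 69 plastid genes. With the replicate block 4 of the 6 genes passed. A second probe set per gene could not be tried, since each gene has 1. With the lone array of a group, limma assumes that it varies like the other group.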
